A study of Mus musculus with 16 samples.

Results

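The genes described here are 32 genes of glycolysis and of the response to low oxygen. They were listed by name for their known function, with earlier results of these data known. They were looked up by symbol among the 13733 genes of the deposited expression table, and 28 of the 32 were analysed. Gapdh, Pgk1, Pgam1 and Eno1 are not analysed here. All 28 passed the filter on low values, which kept 13173 genes with at least 1 CPM (counts per library scaled to a common library size) in at least 4 libraries. Of the 28, 20 carry glucose, lactate or pyruvate steps, 4 belong to oxygen sensing and 4 are grouped here as hypoxia targets. Genes of the other groups, such as Hk2, Pdk1, Egln1 and Egln3, are also known targets of the hypoxia-inducible factors.

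The libraries were bulk RNA-seq libraries of cells from mouse knee joints, a single library per mouse and 4 mice in each of 4 groups. Wildtype (WT) C57BL/6 mice and mice of the same background lacking Trem2, a receptor of macrophages and other myeloid cells (Trem2-/-, strain C57BL/6J-Trem2em2Adiuj/J), were compared uninjured (D0) and 7 days after rupture of the anterior cruciate ligament by a single tibial compression (D7). The mice were 10 weeks old at injury per the study, whereas the sample labels give 16 weeks and carry an extraction protocol written for another mouse model, so age and tissue handling were not settled here. The knockout is carried by every cell of the mouse, so no cell type is singled out by the genotype. Per the methods of the study, joints were digested to cells. Whether immune and other cells were then separated for these libraries is not given in the sources used here.

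Glycolysis splits glucose to pyruvate in the cytosol and yields ATP without oxygen, and lactate dehydrogenase and lactate exporters let it run on when mitochondria are limited. HIF-1 alpha and HIF-2 alpha (Hif1a and Epas1) are transcription factor subunits that prolyl hydroxylases of the Egln family mark for destruction in the presence of oxygen. When oxygen falls the subunits persist, pair with Arnt and switch on glucose transporters, glycolytic enzymes, Pdk1, Bnip3 and Egln3, among others. Cartilage has no blood vessels and its chondrocytes live on glycolysis at low oxygen, and activated neutrophils and macrophages also draw heavily on it.

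Reads per library ranged from 11567073 to 32867818, with a median of 16399898, so that 3 reads correspond to between 0.101 and 0.250 CPM. The 4 WT D0 libraries held Trem2 at 2.51, 4.88, 5.26 and 5.61 CPM, and the Trem2-/- D0 libraries at 1.88, 0.948, 2.68 and 1.70 CPM. At D7 the WT values were 15.1, 22.5, 18.9 and 10.7 CPM against 4.13, 4.69, 3.42 and 4.84 CPM in Trem2-/- libraries. The means were lower in the knockout at both times, the groups overlapped at D0 only, and no library was at 0. Cell type markers moved strongly with injury. In WT, the summed level of 6 chondrocyte markers was 667 to 12178 CPM at D0 and 27924 to 70996 CPM at D7, and that of 6 neutrophil markers was 10066 to 22961 CPM at D0 and 3105 to 10168 CPM at D7. Of the WT markers tested, 4 of 6 of leukocytes, 6 of 6 of neutrophils, 4 of 4 of B cells, 5 of 5 of erythroid cells and 2 of 6 of skeletal muscle fell, 4 of 5 of monocytes and macrophages, 6 of 6 of chondrocytes and 5 of 6 of fibroblasts rose, and 0 of 5 of endothelium passed. In Trem2-/- all 6 leukocyte, 6 neutrophil, 4 B cell, 5 erythroid and 6 muscle markers fell, all 6 chondrocyte and 5 of 6 fibroblast markers rose, and 3 of 5 macrophage markers rose and 1 fell. No marker was at 0 in any library. In bulk RNA, fewer cells of a type and less RNA per cell cannot be told apart, and the part of cell makeup in the results that follow was not tested.

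Injury changed these genes in both directions. In WT joints 6 of the 28 genes rose and 5 fell between D0 and D7 (limma, Benjamini-Hochberg adjusted p under 0.05), against a background of 28.5% of all genes tested, 15.9% of them upward and 12.6% downward. In Trem2-/- joints 5 rose and 10 fell, with a background of 53.2%, 26.0% upward and 27.2% downward. The mitochondrial receptor gene Bnip3, the pyruvate dehydrogenase kinase gene Pdk1, Aldoc, Tpi1 and Egln1 rose in both genotypes, while Hk3, Slc2a3, Pfkfb4 and Ldhb fell in both. No gene passed in opposite directions, and 26 of the 28 had the same sign of change in both genotypes, Pkm and Ndrg1 being the exceptions. The shares of all genes tested that did so are not given here, so this agreement cannot be read as particular to the members. These D7 and D0 groups were different mice in WT and Trem2-/-, so the paired values share no library. The median log2 fold change of the 28 genes was −0.12 in WT and −0.11 in Trem2-/-, beside −0.04 in each genotype for all genes tested. As a set the members sat near the middle of all genes, with 11 of 28 passing in WT and 15 of 28 in Trem2-/-. The WT count was 7 without the first WT D7 mouse and 6 in a fit of the WT groups alone, which lost Slc2a3, Slc16a1, Pfkl, Pfkfb4 and Egln1. The fit over all libraries borrows its spread from all 4 groups. The share of all genes tested that passed in the reduced fits is not given here, so the member counts have no background beside them.

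Groups of mice that did not overlap were counted as a second view. In WT, D0 and D7 did not overlap for 10 of the 28 genes, where 22.2% of all genes tested did not overlap. In Trem2-/- the count was 15 of 28, where 52.4% did not. Fold changes below are log2 differences of CPM + 1 from a fit over all 16 libraries, given ± standard error, with p-values adjusted over 13173 genes.

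**Figure D1:**
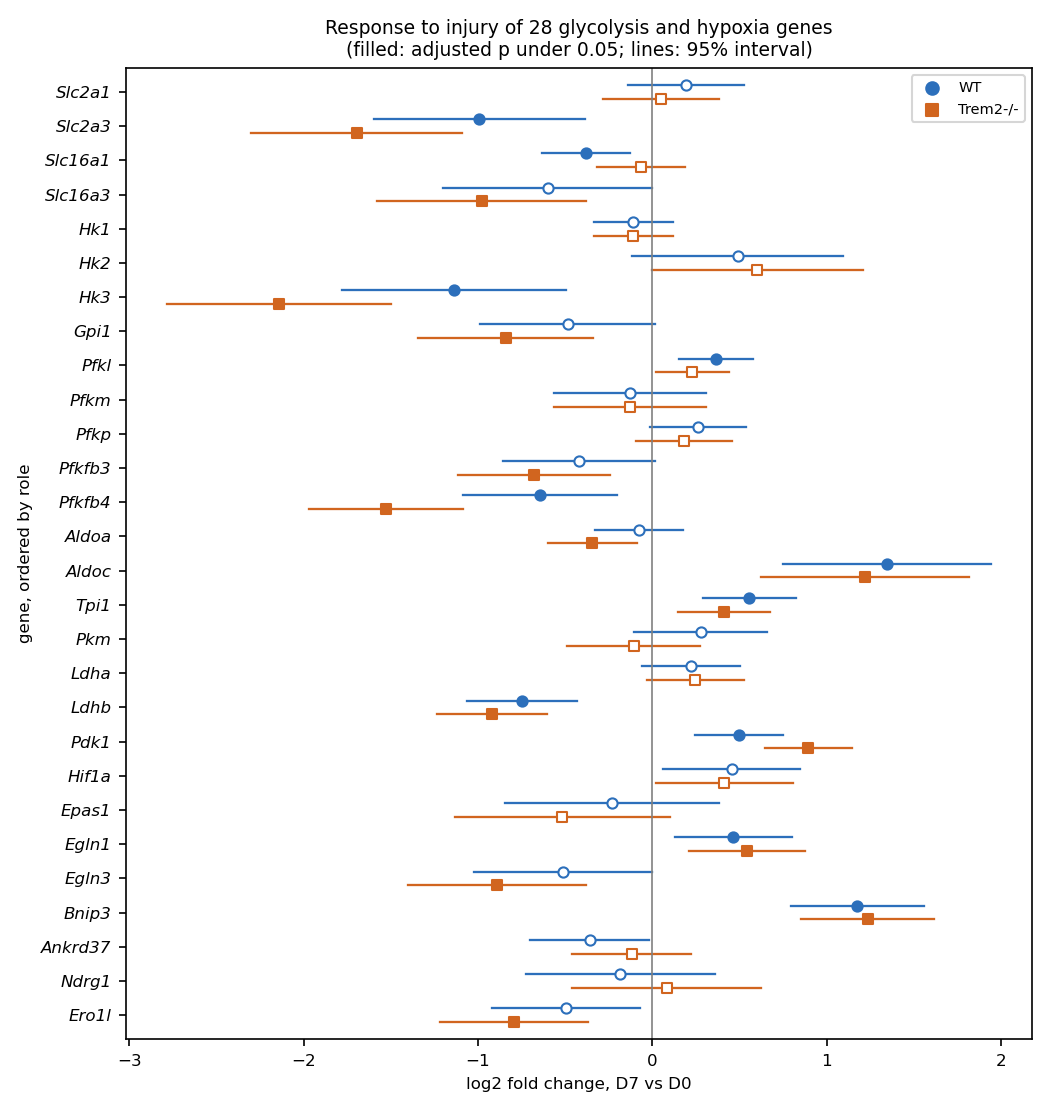
Log2 fold change between D7 and D0 (x axis) for the 28 genes, ordered by role from transporters at the top to hypoxia targets at the bottom, in WT (circles) and Trem2-/- (squares), with 95% intervals as lines and filled symbols for adjusted p under 0.05. Bnip3 and Aldoc lie farthest to the right at over 1 in both genotypes, and Hk3, Slc2a3 and Pfkfb4 farthest to the left in Trem2-/-.

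Glucose enters cells through the transporters encoded by Slc2a1 (GLUT1) and Slc2a3 (GLUT3, a high-affinity transporter of neurons and white blood cells). Slc2a3 stood at 316, 456, 431 and 298 CPM in the WT D0 mice and at 116, 161, 333 and 187 CPM at D7. The third D7 mouse reached into the D0 range and the other 3 lay below it, and the gene fell by 0.99 ± 0.28 on the log2 scale (adjusted p = 0.0191). The WT call was lost without the second or the third D0 mouse or the first D7 mouse (log2 fold changes of −0.89, −0.92 and −0.77). In Trem2-/- mice the D0 values were 509, 571, 698 and 313 CPM and the D7 values 134, 139, 169 and 181 CPM. Here the groups did not overlap and the gene fell by 1.70 ± 0.28 (adjusted p = 0.000203). Slc2a1 ranged from 93.3 to 171 CPM over all 16 mice and passed in neither genotype, with log2 fold changes of 0.19 in WT and 0.05 in Trem2-/-. As a share of the summed level of both transporters per kb of exon, Slc2a1 made up 40.5% ± 8.84 in WT D0 and 60.6% ± 6.04 in WT D7 (SD, n = 4), and 35.8% ± 7.61 and 65.0% ± 1.57 in Trem2-/- mice. The D0 and D7 shares did not overlap in either genotype, so the more abundant of both transporters per kb was Slc2a3 at D0 and Slc2a1 at D7 on average. The fourth WT D0 mouse had about equal shares, with Slc2a1 at 50.3%.

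Lactate leaves glycolytic cells mainly through MCT4, encoded by Slc16a3, whereas MCT1, encoded by Slc16a1, carries it both ways. Slc16a1 fell in WT, from 141, 126, 122 and 136 CPM to 87.0, 109, 99.8 and 108 CPM with no overlap (log2 fold change −0.38 ± 0.12, adjusted p = 0.0275). Without the first WT D7 mouse the log2 fold change was −0.31 and did not pass. Its change in Trem2-/- was −0.07 (adjusted p = 0.659). Slc16a3 showed the other pattern and fell in Trem2-/-, from 650.2, 836, 453 and 524 CPM to 241, 299, 343 and 344 CPM (log2 fold change −0.98 ± 0.28, adjusted p = 0.00886). In WT its log2 fold change was −0.60 (adjusted p = 0.116), with D0 values of 415 to 829.6 and D7 values of 229 to 635 CPM, and without the third D7 mouse it was −0.87 and passed. The difference in response between genotypes passed for neither transporter (interaction 0.31, adjusted p = 0.646, and −0.38, adjusted p = 0.834, limma).

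Hexokinases trap glucose in the cell by phosphorylation. Hk1 is the housekeeping form, Hk2 the inducible form and a known HIF target, and Hk3 is found mostly in myeloid cells. Hk3 showed the deepest fall of the 28 genes in both genotypes. WT mice held 123, 234, 204 and 132 CPM at D0 and 50.7, 64.1, 103 and 96.2 CPM at D7. All 4 injured mice lay below all 4 uninjured mice, and the gene fell by 1.14 ± 0.30 on the log2 scale (adjusted p = 0.0135). The Trem2-/- values were 235, 185, 366 and 128 CPM at D0 and 39.6, 44.3, 59.2 and 49.0 CPM at D7, a fall of 2.14 ± 0.30 with no overlap (adjusted p = 5.83e-05). The summed neutrophil markers moved beside it. In WT D0 they were 10066, 20454, 22961 and 10691 CPM and in WT D7 3105, 5303, 10168 and 5020.3 CPM, in the same order of mice. In Trem2-/- they were 27758, 14955, 31078 and 10379.5 CPM at D0 and 3107, 3283, 5235 and 4295 CPM at D7. The D0 mouse with the highest Hk3 in Trem2-/-, the third, also had the highest neutrophil sum, and the fourth had the lowest of both. In WT D0 the second mouse had the highest Hk3 and the third the highest sum, while the first had the lowest of both. All 6 neutrophil markers fell in both genotypes. Of 5 monocyte and macrophage markers, 4 rose in WT, and 3 rose and 1 fell in Trem2-/-. The part of these cell types in the Hk3 result was not tested. Exons of Unc5a lie across from those of Hk3 on the other strand, and the sources used here do not say whether reads were counted by strand.

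Hk2 and Hk1 did not pass in either genotype. Hk2 ranged from 85.2 to 245 CPM in WT D0 and from 199.7 to 304 CPM in WT D7 (log2 fold change 0.49 ± 0.29), and its log2 fold change in Trem2-/- was 0.60 ± 0.29 (adjusted p = 0.0869). The Trem2-/- change of Hk2 was called without the first Trem2-/- D0 mouse (0.81), without the second WT D0 mouse (0.60) and in a fit of the Trem2-/- groups alone. Hk1 kept within 155 to 218 CPM over all 16 mice. As shares of the summed hexokinase level per kb of exon, Hk3 made up 47.6% ± 14.5 in WT D0 and 26.1% ± 4.84 in WT D7, while Hk2 made up 29.5% ± 12.9 and 47.6% ± 4.39. In Trem2-/- mice Hk3 went from 53.1% ± 11.5 to 17.0% ± 0.902 and Hk2 from 26.2% ± 7.99 to 55.7% ± 1.29. On average the hexokinase of highest level was therefore Hk3 at D0 and Hk2 at D7 in both genotypes, and the Hk3 shares of D0 and D7 did not overlap in either. The WT D0 mice were divided, however. The first and the fourth had more Hk2 (39.4% and 41.1%) than Hk3 (35.1% and 35.9%).

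**Figure D2:**
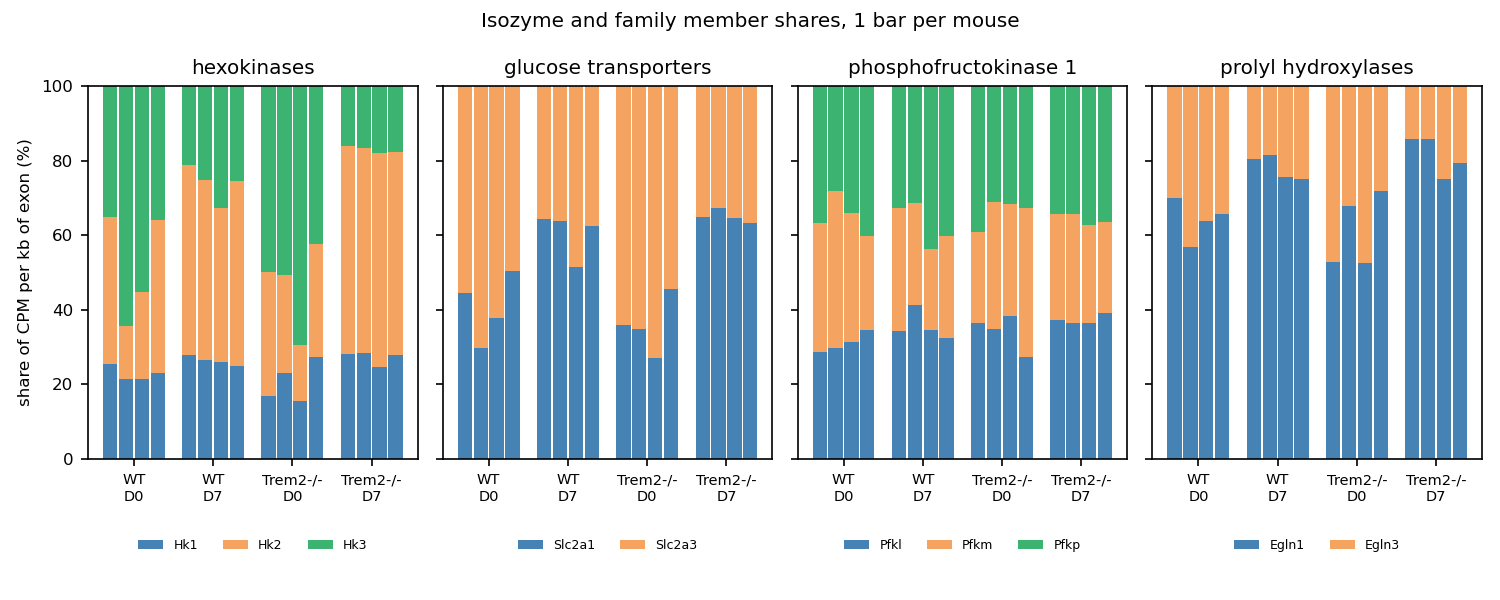
Share (%) of the summed CPM per kb of exon taken by each member of 4 gene families, with 1 stacked bar per mouse and the 4 groups side by side. The Hk3 share runs from 35.1% to 64.2% in WT D0 and from 21.1% to 32.7% in WT D7. In Trem2-/- it runs from 42.3% to 69.5% at D0 and from 16.0% to 18.0% at D7. The Slc2a1 and Egln1 shares are higher at D7 than at D0 in each genotype. The Pfkl shares of D0 and D7 overlap in each genotype. They run from 28.6% to 34.6% and from 32.3% to 41.2% in WT. In Trem2-/- they run from 27.4% to 38.3% and from 36.4% to 39.1%.

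After hexokinase, Gpi1 turns the glucose phosphate to fructose phosphate and the phosphofructokinases commit it to glycolysis. Gpi1 fell in Trem2-/-, from 641, 390.3, 841 and 394 CPM to 275, 304, 322 and 297 CPM (log2 fold change −0.84 ± 0.24, adjusted p = 0.00747). In WT, its D0 values of 326, 596, 575 and 406 CPM and D7 values of 288, 359.7, 368 and 307 CPM overlapped (adjusted p = 0.126), and Gpi1 was called without the first D0 mouse (log2 fold change −0.65). The D7 mice of both genotypes were close to each other and the D0 mice spread widely. The liver-type subunit gene Pfkl passed in WT. It rose from 56.7, 54.3, 64.7 and 63.3 CPM to 79.5, 87.0, 69.9 and 72.9 CPM without overlap (log2 fold change 0.36 ± 0.10, adjusted p = 0.0152). In Trem2-/- D0 and D7 did not overlap for Pfkl either, with a log2 fold change of 0.23 and an adjusted p of 0.0633, and the interaction was −0.14 with a 95% interval from −0.43 to 0.16. The WT call was lost in a fit of the WT groups alone (adjusted p = 0.0642), and Pfkl was called in Trem2-/- with median-of-ratios rescaling (adjusted p = 0.0449), with DESeq2 (0.029) and without the second Trem2-/- D0 mouse (0.0277). The muscle-type Pfkm (22.0 to 43.3 CPM) and platelet-type Pfkp (103 to 182 CPM) passed in neither genotype.

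Pfkfb3 and Pfkfb4 encode bifunctional enzymes that set the level of a fructose bisphosphate that is the main activator of phosphofructokinase. Both had lower means at D7 than at D0 in each genotype, but Pfkfb3 passed in Trem2-/- only. Pfkfb4 stood at 45.4, 76.0, 58.8 and 50.6 CPM in WT D0 and 28.6, 29.7, 39.3 and 49.5 CPM in WT D7, where the highest D7 mouse reached above the lowest D0 mouse (log2 fold change −0.64 ± 0.21, adjusted p = 0.0321). The WT call did not hold without the second or the third D0 mouse (−0.50 and −0.62) or without the first or second D7 mouse (−0.54 and −0.55). In Trem2-/- it went from 78.7, 70.9, 102 and 51.4 CPM to 22.6, 24.7, 27.0 and 25.4 CPM, a wide gap (log2 fold change −1.53 ± 0.21, adjusted p = 4.73e-05). Pfkfb3 fell in Trem2-/- by 0.68 ± 0.20 (adjusted p = 0.0114), from between 240.1 and 329 CPM to between 154 and 221 CPM. Its WT change of −0.42 had an adjusted p of 0.13 and passed with quantile normalization.

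Aldolase splits the phosphorylated sugar and Tpi1 interconverts the products. Aldoa, the main form here with at least 98.9% of the aldolase level per kb in every mouse, fell in Trem2-/- by 0.34 ± 0.12 (adjusted p = 0.0242), from 593 to 763 CPM at D0 to 504 to 552 CPM at D7. This call was lost without the first or the third D0 mouse or the first D7 mouse of Trem2-/- (−0.32, −0.29 and −0.31). Its change in WT was −0.08 (adjusted p = 0.652). Aldoc, the brain-type form, rose from a very low level. The WT D0 mice held 0.538, 0.765, 0.744 and 1.31 CPM and the WT D7 mice 5.01, 2.15, 3.34 and 4.51 CPM, without overlap (log2 fold change 1.34 ± 0.28, adjusted p = 0.00397). In Trem2-/- mice Aldoc stood at 1.21, 0.442, 0.895 and 0 CPM at D0 and 2.18, 2.07, 5.04 and 2.00 CPM at D7 (log2 fold change 1.22 ± 0.28, adjusted p = 0.0021). The fourth Trem2-/- D0 library was listed at 0. At this level the fold depends on the pseudocount, and in WT it was 2.03 with a pseudocount of 0.1 and 0.57 with 5.

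Tpi1 rose in both genotypes. Its WT values of 132, 150.3, 147 and 161 CPM at D0 and 227, 225, 209 and 207 CPM at D7 lay well apart (log2 fold change 0.56 ± 0.12, adjusted p = 0.00583). In Trem2-/- the third D0 mouse, at 208 CPM, lay inside the D7 range of 197 to 237 CPM, and the other 3 below it (log2 fold change 0.41 ± 0.12, adjusted p = 0.0122). Pkm, which encodes the last enzyme of glycolysis, had the highest level per kb of the 28 genes and passed in neither genotype. It ranged from 866 to 1515 CPM over all mice, and its log2 fold changes of 0.28 in WT and −0.11 in Trem2-/- had opposite signs, each with a 95% interval that held 0. Of its exon windows of 75 bases, 17.8% also occur in other annotated genes, on either strand. The share was 10.8% for Gpi1 and 13.3% for Ankrd37. Most of it lay in genes whose exons overlap theirs in place. These were Gm49759 on the same strand for Pkm (10.6%), and on the other strand Gm26762 for Gpi1 (6.71%) and Lrp2bp for Ankrd37 (13.3%). How reads in such overlaps were assigned is not given in the sources used here, so these counts are uncertain.

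At pyruvate the path divides between lactate and mitochondria. Ldha and Ldhb encode the muscle-type and heart-type subunits of lactate dehydrogenase, and Pdk1 encodes a kinase, itself a known HIF target, that switches off pyruvate dehydrogenase and so keeps pyruvate out of mitochondria. Ldhb fell with no overlap in both genotypes, from 13.3, 9.42, 12.3 and 7.79 CPM to 5.15, 5.89, 5.48 and 6.95 CPM in WT (log2 fold change −0.75 ± 0.15, adjusted p = 0.00315). In Trem2-/- it went from 11.0, 11.5, 12.5 and 14.1 CPM to 5.81, 5.72, 6.55 and 5.92 CPM (log2 fold change −0.92 ± 0.15, adjusted p = 0.000157). Ldha was far more abundant, at 459 to 687 CPM over all mice, and did not pass, with log2 fold changes of 0.22 in WT and 0.25 in Trem2-/-. The Ldhb share of both subunits per kb was 4.20% ± 1.00 in WT D0, 2.03% ± 0.294 in WT D7, 4.81% ± 0.982 in Trem2-/- D0 and 2.01% ± 0.0528 in Trem2-/- D7. Of the Ldhb exon sequence, 12.6% of 75-base windows also occur in Gm5514, so counts may be split between them.

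Pdk1 rose in both genotypes. WT mice held 22.2, 27.9, 23.4 and 25.9 CPM at D0 and 41.1, 37.1, 32.8 and 31.2 CPM at D7, and all injured mice lay above all uninjured mice (log2 fold change 0.50 ± 0.12, adjusted p = 0.00783). The Trem2-/- mice went from 19.0, 20.8, 24.8 and 21.1 CPM to 41.3, 37.8, 47.1 and 36.7 CPM, also without overlap (log2 fold change 0.89 ± 0.12, adjusted p = 3.91e-05).

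**Figure D3:**
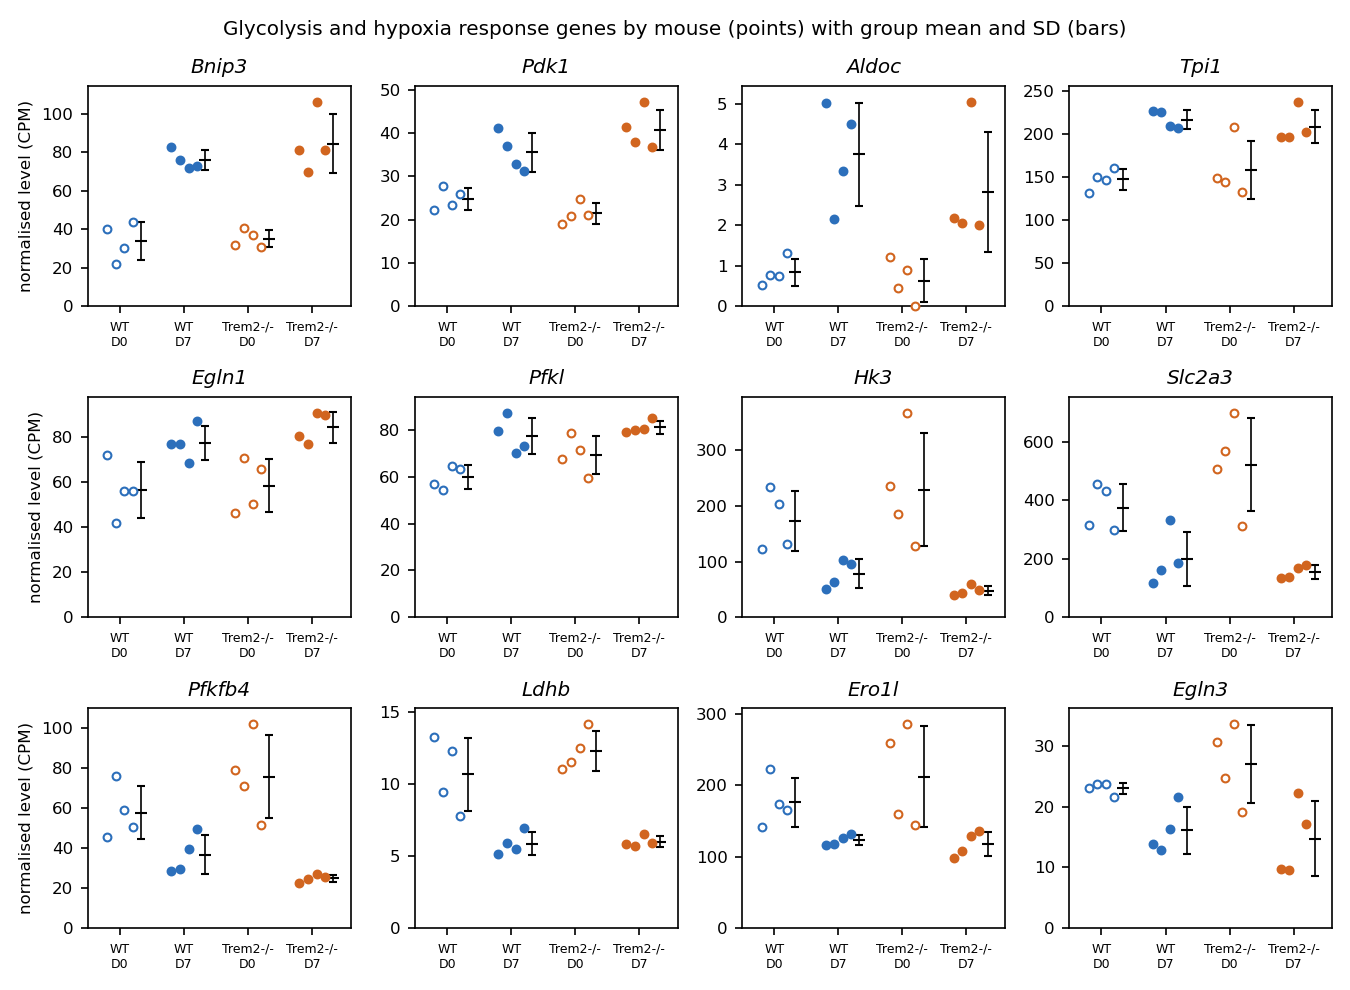
Normalised level (CPM, y axis from 0) of 12 of the genes in each mouse (points, open for D0 and filled for D7, WT in blue and Trem2-/- in orange), with the group mean and SD as bars beside the points. Bnip3, Pdk1, Aldoc, Pfkl, Hk3, Ldhb and Ero1l separate D0 from D7 in both genotypes. Slc2a3, Pfkfb4 and Egln1 overlap in WT and separate in Trem2-/-, while Tpi1 and Egln3 separate in WT and overlap in Trem2-/-.

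Of the 4 oxygen sensing genes, Egln1 rose in both genotypes, Egln3 fell in Trem2-/-, and Hif1a and Epas1 passed in neither. Hif1a had log2 fold changes of 0.45 ± 0.18 in WT (adjusted p = 0.0745) and 0.41 ± 0.18 in Trem2-/- (adjusted p = 0.0715). It was called in WT without the fourth WT D0 mouse (0.54) and with DESeq2, and in Trem2-/- without the first Trem2-/- D0 mouse (0.55). Its values were 557, 405, 544 and 626 CPM in WT D0 and 624, 610.2, 837 and 853 CPM in WT D7, so that only the highest uninjured mouse exceeded the lowest injured mice. Epas1 spread from 459.6 to 1137 CPM among WT D0 mice and from 438 to 1098 CPM among Trem2-/- D0 mice, but only from 475 to 576 CPM and 456 to 554 CPM at D7. Without the first Trem2-/- D0 mouse the Trem2-/- change of Epas1 was called (−0.75). These transcripts say nothing of HIF protein, whose level oxygen sets after translation.

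Egln1 and Egln3 encode prolyl hydroxylases, Egln1 being the main oxygen sensor and both being known HIF targets. They moved apart. Egln1 rose from 72.0, 41.9, 56.2 and 56.0 CPM to 76.7, 77.0, 68.3 and 87.0 CPM in WT (log2 fold change 0.46 ± 0.16, adjusted p = 0.0389), with the first D0 mouse inside the D7 range. The WT call was the least firm of the list, with log2 fold changes from 0.33 to 0.47 and no call when the second, the third or the fourth D0 mouse or the first, the second or the fourth D7 mouse was left out. In Trem2-/- it rose from 46.4, 70.7, 50.2 and 66.0 CPM to 80.4, 76.7, 90.5 and 89.8 CPM without overlap (log2 fold change 0.54 ± 0.16, adjusted p = 0.00926). Egln3 fell in Trem2-/-, from 30.6, 24.7, 33.5 and 19.2 CPM to 9.81, 9.51, 22.2 and 17.2 CPM, where the third D7 mouse lay within the D0 range (log2 fold change −0.89 ± 0.24, adjusted p = 0.00606). For Egln3 in WT the D0 and D7 mice did not overlap, at 23.0, 23.7, 23.7 and 21.6 CPM against 13.8, 12.9, 16.3 and 21.5 CPM, yet the adjusted p was 0.117. The Egln1 share of both per kb was 64.0% ± 5.49 in WT D0 and 78.2% ± 3.33 in WT D7, and 61.3% ± 10.0 and 81.5% ± 5.21 in Trem2-/-.

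Among the 4 hypoxia targets, Bnip3, whose product tags mitochondria for removal, had the clearest rise. WT mice held 40.2, 22.0, 30.6 and 43.9 CPM at D0 and 83.1, 76.0, 72.1 and 73.0 CPM at D7. Every injured mouse lay above every uninjured one by a wide margin, a log2 fold change of 1.18 ± 0.18 (adjusted p = 0.000841). Trem2-/- mice rose from 31.9, 40.6, 37.1 and 31.0 CPM to 81.1, 70.02, 106 and 81.2 CPM, again without overlap (log2 fold change 1.24 ± 0.18, adjusted p = 7.1e-05). Of Bnip3 exon windows of 75 bases, 34.4% also occur in other annotated genes, 20.4% in AC160336.1 alone, so its level is uncertain where reads were split between copies.

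Ero1l, which encodes an oxidase of disulfide formation in the endoplasmic reticulum, went the other way. It fell in Trem2-/-, from 259, 159.8, 285 and 145 CPM to 98.9, 108, 129.6 and 135 CPM (log2 fold change −0.79 ± 0.20, adjusted p = 0.00379). In WT the D0 values of 141, 223, 174 and 166 CPM and D7 values of 116, 118, 126 and 132 CPM did not overlap, and the log2 fold change was −0.49 with an adjusted p of 0.0727. It was called in WT without the first WT D0 mouse (−0.59) or the third or the fourth Trem2-/- D0 mouse (−0.49 in both cases). Ankrd37, at 2.58 to 5.73 CPM, and the stress-response gene Ndrg1, at 223 to 579 CPM, passed in neither genotype. Of the 4 genes of this group, 1 rose in both genotypes, 1 fell in Trem2-/- and 2 did not pass. Of the known targets named in other groups, Pdk1 and Egln1 rose in both, Egln3 fell in Trem2-/- and Hk2 passed in neither.

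The promoters of 5 of these genes are shown because the consensus of the hypoxia response element can be read in them, in 3 genes that rose and 2 that fell. Each is the 250 bases before a RefSeq transcription start (GRCm38.p6), 5′ to 3′ on the strand of the gene, with the 5-base core ACGTG or GCGTG on either strand in capitals (its reverse complement reads CACGT or CACGC). In Bnip3 the capitals CACGTG hold the core on both strands and count as 2 matches.
Bnip3 (chr7:138909507-138909756, minus strand): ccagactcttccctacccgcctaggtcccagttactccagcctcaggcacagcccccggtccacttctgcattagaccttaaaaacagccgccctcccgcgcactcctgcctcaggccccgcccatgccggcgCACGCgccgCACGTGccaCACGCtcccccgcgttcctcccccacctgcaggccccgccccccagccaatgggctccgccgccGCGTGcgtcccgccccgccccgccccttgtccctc
Egln1 (chr8:124949255-124949504, minus strand): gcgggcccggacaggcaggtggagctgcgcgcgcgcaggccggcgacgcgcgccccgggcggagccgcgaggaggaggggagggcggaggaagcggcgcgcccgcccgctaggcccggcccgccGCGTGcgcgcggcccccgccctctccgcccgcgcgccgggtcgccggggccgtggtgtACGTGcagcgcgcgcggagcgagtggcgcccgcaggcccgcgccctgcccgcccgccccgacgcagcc
Pdk1 (chr2:71872974-71873223, plus strand): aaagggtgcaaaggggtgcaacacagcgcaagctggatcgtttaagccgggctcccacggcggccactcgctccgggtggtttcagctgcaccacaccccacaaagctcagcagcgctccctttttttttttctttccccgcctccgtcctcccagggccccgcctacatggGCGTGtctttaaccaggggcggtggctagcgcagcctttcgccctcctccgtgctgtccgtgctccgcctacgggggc
Hk3 (chr13:55021386-55021635, minus strand): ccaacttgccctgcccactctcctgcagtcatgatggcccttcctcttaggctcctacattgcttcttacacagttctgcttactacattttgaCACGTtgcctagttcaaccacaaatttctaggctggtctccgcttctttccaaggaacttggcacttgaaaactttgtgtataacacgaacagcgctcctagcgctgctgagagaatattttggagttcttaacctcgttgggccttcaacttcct
Pfkfb4 (chr9:108991652-108991901, plus strand): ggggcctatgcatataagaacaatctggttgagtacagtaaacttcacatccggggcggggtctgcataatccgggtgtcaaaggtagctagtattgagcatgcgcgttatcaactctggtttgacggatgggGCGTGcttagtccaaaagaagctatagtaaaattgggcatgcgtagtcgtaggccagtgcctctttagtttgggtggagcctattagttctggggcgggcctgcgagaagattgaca
The core occurred 5 times in the Bnip3 window, 2 times in that of Egln1 and 1 time in each of the others. Pdk1 has another start in the table, whose window (chr2:71874654-71874903, plus strand) held the core 0 times. The promoter table used here, made from RefSeq, matched 24 of the 28 genes, the others being Slc2a3, Epas1, Ndrg1 and Ero1l. Over all starts of the 24 genes, 28 of 35 promoters (80.0%) held the core, against 38.6% of 32851 promoters of all genes. The mean GC content was 60.2% in the former and 53.2% in the latter. Among genes that rose in either genotype 6 of 8 promoters held it, among those that fell 10 of 12 and among those that passed in neither 12 of 15. The letters therefore did not separate the genes by direction. A match is a match of letters and not a measured binding site.

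The rest of the pathways was read from lists of genes outside the 32. These lists too were chosen with earlier results of these data known. Of 15 other hypoxia targets tested, 7 rose and 2 fell in WT and 8 rose and 3 fell in Trem2-/- (15.9% and 26.0% of all genes tested rose), with median log2 fold changes of 0.65 and 1.13. The 3 that moved most in WT were Car12, a membrane carbonic anhydrase (2.97 ± 0.59, adjusted p = 0.00303), Plod2, a collagen lysyl hydroxylase (2.84 ± 0.47, adjusted p = 0.00123), and P4ha2, a collagen prolyl hydroxylase (2.77 ± 0.40, adjusted p = 0.000722). Plod2 and P4ha2 also serve collagen synthesis, and the fibroblast marker sum went from 4585 to 36552 CPM at D0 to 53867 to 90741 CPM at D7 in WT, with 5 of 6 markers rising, and their part in it was not tested. In Trem2-/- the log2 fold changes of these 3 genes were 4.38, 3.59 and 2.80. None of the 4 other oxygen sensing genes passed in either genotype at an adjusted p under 0.05, nor did any reach an unadjusted p under 0.05.

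**Figure D4:**
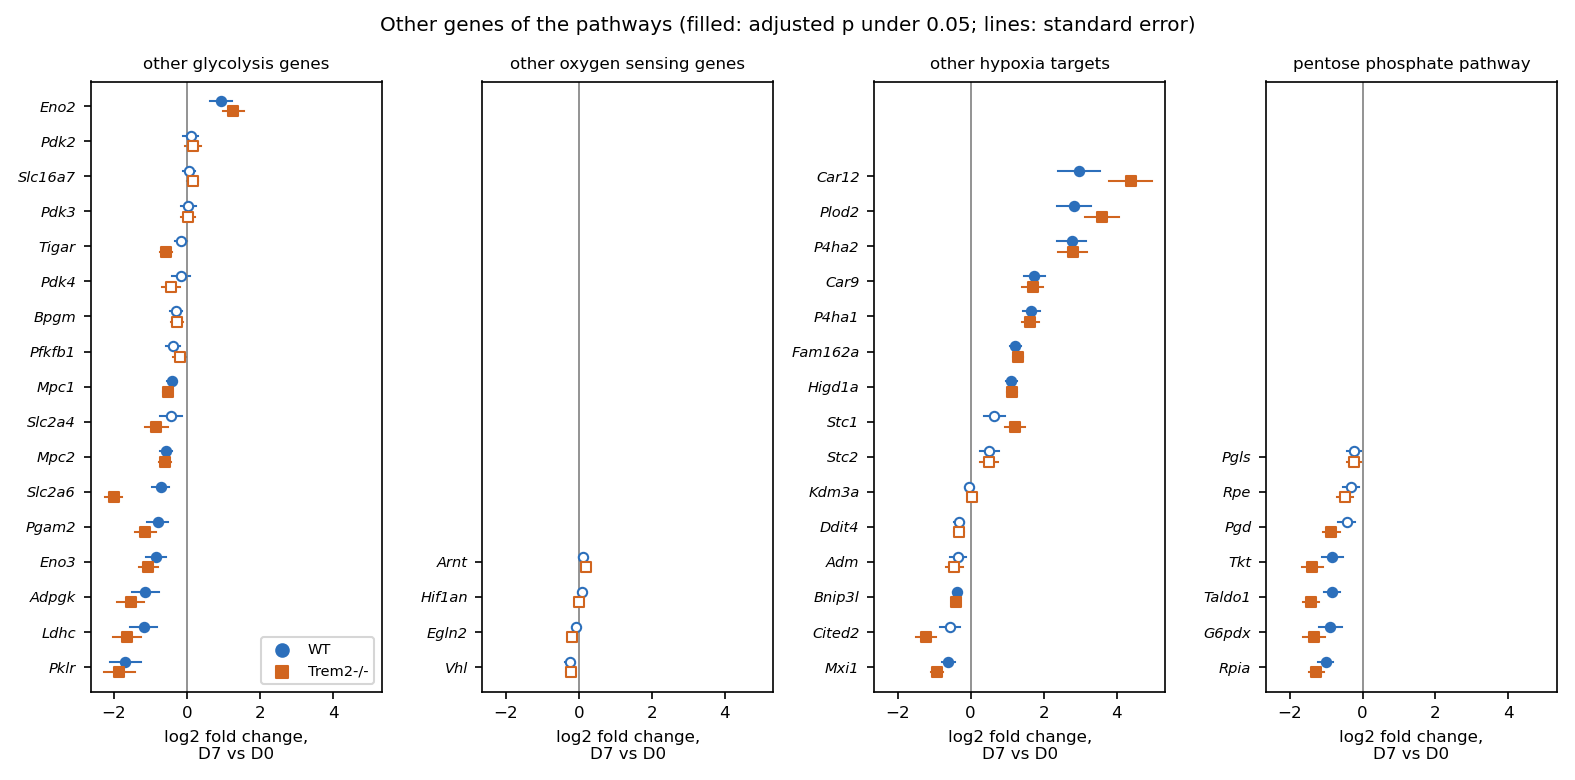
Log2 fold change between D7 and D0 (x axis) of genes outside the list of 32, in 4 panels by pathway, in WT (circles) and Trem2-/- (squares), with standard errors as lines and filled symbols for adjusted p under 0.05. The other hypoxia targets reach from Car12 at the right to Mxi1 at the left, and all 7 genes of the pentose phosphate pathway lie left of 0.

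Among other glycolysis genes more fell than rose. Of 17 tested, 1 rose and 8 fell in WT and 1 rose and 10 fell in Trem2-/-, where 12.6% of all genes tested fell in WT and 27.2% in Trem2-/-. The largest changes in either genotype were those of Slc2a6, a glucose transporter of leukocytes, Pklr, the pyruvate kinase of liver and red cells, and the testis-type lactate dehydrogenase Ldhc. Slc2a6 had a log2 fold change of −0.72 ± 0.23 in WT (adjusted p = 0.03) and −2.01 ± 0.23 in Trem2-/- (adjusted p = 1.99e-05). Pklr changed by −1.69 ± 0.42 in WT (adjusted p = 0.0105) and −1.86 in Trem2-/-, and Ldhc by −1.19 ± 0.38 (adjusted p = 0.0293) and −1.65. Summed erythroid markers went from 1364 to 2231 CPM to 410.2 to 1478 CPM beside Pklr, and their part in it was not tested. The pentose phosphate pathway draws phosphorylated glucose away from glycolysis to make NADPH. None of its 7 genes rose, 4 fell in WT and 5 in Trem2-/- (12.6% and 27.2% of all genes tested fell), with medians of −0.83 and −1.27. Taldo1 (log2 fold change −0.83 ± 0.21 in WT and −1.40 ± 0.21 in Trem2-/-), Tkt (−0.83 ± 0.29 and −1.37 ± 0.29) and G6pdx, which encodes the first enzyme of the pathway (−0.88 ± 0.31 and −1.33 ± 0.31), had the largest falls in Trem2-/-. Their adjusted p-values in WT were 0.0116, 0.0418 and 0.0437.

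Few of these genes were called between genotypes. The question of the comparison was whether loss of Trem2 alters the injured joint. With the criterion of the study (unadjusted p under 0.05 and a log2 fold change over 0.32 in size), 2 of the 28 genes were called between Trem2-/- and WT at D7, both lower in the knockout, against a background of 5.72% of all genes tested, 4.53% lower. At D0 the criterion called 0 of 28, with a background of 2.15%, and 0 of the 28 had an unadjusted p under 0.05. At D0, 1 gene was called without the second WT D0 mouse (Pfkfb4) or the third (Aldoa), and 2 without the fourth Trem2-/- D0 mouse (Slc2a3 and Pfkfb4), all higher in Trem2-/-. After adjustment limma called 0 of the 28 and 0 of 13173 genes at either time. Trem2 itself, whose D7 groups did not overlap, was therefore not called either, so a missing call does not show equal levels. With edgeR, voom or DESeq2 on the recovered reads 0 of the 28 passed adjustment as well, while over all genes at D7 edgeR called 0, voom 1 and DESeq2 39. With DESeq2, 2 of the 28 had an unadjusted p under 0.05 at D0. Of the 28, 1 gene had D7 groups that did not overlap (background 8.33%) and 0 had D0 groups that did not (background 0.979%).

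The genes called at D7 were Hk3 and Pfkfb4. Hk3 had a log2 fold change of −0.66 ± 0.30 (limma, adjusted p = 0.674), and the WT mouse with the least Hk3, at 50.7 CPM, lay inside the Trem2-/- range of 39.6 to 59.2 CPM. An exact two-sided permutation test over the 8 mice gave p = 0.0571. Pfkfb4 had one of −0.51 ± 0.21 (adjusted p = 0.615), all 4 Trem2-/- mice lying below all 4 WT mice, with an exact permutation p of 0.0286, the smallest that 4 against 4 can give. Neither gene was called without the third or the fourth WT D7 mouse or the first Trem2-/- D7 mouse, where the log2 fold changes were −0.51, −0.54 and −0.57 for Hk3 and −0.47, −0.36 and −0.47 for Pfkfb4. Hk3 alone lost its call without the second or the fourth Trem2-/- D7 mouse or the first or second Trem2-/- D0 mouse. Leukocyte markers moved beside them at D7. Their sum was 1457, 1841, 2962 and 2028 CPM in WT and 1072, 1192, 1319.7 and 1256 CPM in Trem2-/- mice, without overlap, and 5 of the 6 met the same criterion downward. The neutrophil sums of 3105 to 10168 CPM and 3107 to 5235 CPM overlapped, with 0 of 6 meeting it. The summed monocyte and macrophage markers were 442 to 594 CPM in WT and 332 to 393 CPM in Trem2-/-, and the B cell markers 36.9 to 81.1 and 23.8 to 34.2 CPM. Neither pair of sums overlapped, and 3 of 5 and 3 of 4 of these markers met the criterion downward. The part of these cells in the difference was not tested.

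**Figure D5:**
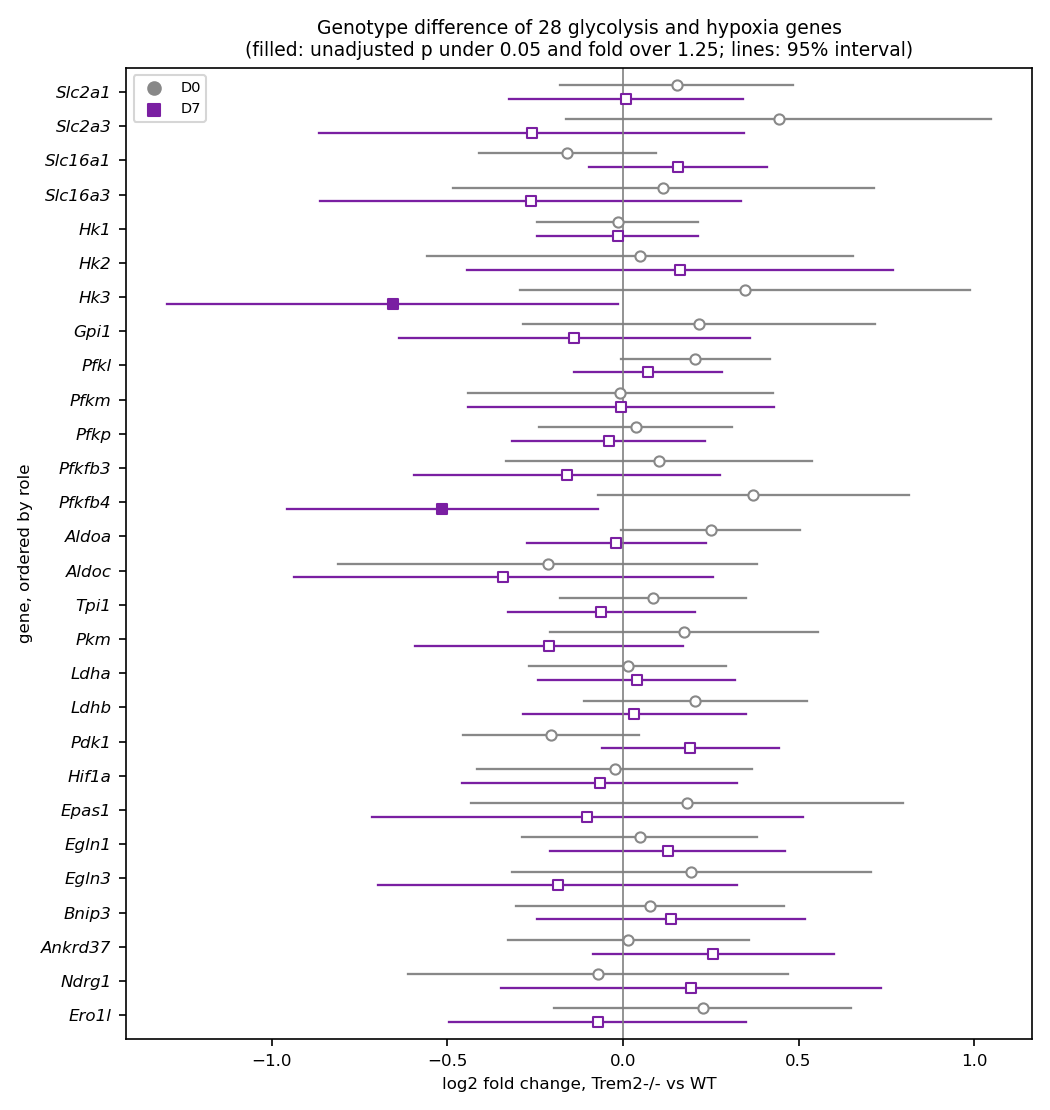
Log2 fold change between Trem2-/- and WT (x axis) of the 28 genes at D0 (grey circles) and D7 (purple squares), with 95% intervals as lines and filled symbols where the unadjusted p is under 0.05 and the log2 fold change over 0.32 in size. Hk3 and Pfkfb4 at D7 are filled and lie left of 0, and every other interval crosses 0.

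Whether injury acted differently in both genotypes was tested by the interaction. By the same criterion 3 of the 28 genes were called, against 7.79% of all genes tested, and 0 after adjustment. Hk3 fell further in Trem2-/- by a log2 difference of −1.003 ± 0.43 (95% interval −1.91 to −0.10, adjusted p = 0.586) and Pfkfb4 by −0.88 ± 0.29 (−1.51 to −0.26, adjusted p = 0.579). Pdk1 rose further, by 0.40 ± 0.17 (0.04 to 0.75, adjusted p = 0.58). Each interaction also takes in the genotype difference at D0, which was not called for any of them. That log2 difference, Trem2-/- against WT, was 0.35 for Hk3, 0.37 for Pfkfb4 and −0.20 for Pdk1. At D7 the Pdk1 difference was 0.19 and not called. Leaving out the fourth WT D0 mouse or the third or the fourth WT D7 mouse left Pfkfb4 alone, and leaving out the fourth Trem2-/- D0 mouse added Slc2a3 and Pkm. Pfkfb4 kept its call with each of the 16 libraries left out in turn, while Hk3 lost it in 8 of these fits and Pdk1 in 6. For Bnip3 the interaction was 0.06, with a 95% interval from −0.48 to 0.60, and for Hif1a −0.04, from −0.60 to 0.51. These intervals leave room for moderate differences in either direction.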

How the data were processed

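Bulk RNA-seq was analysed for 16 mice, 4 in each of 4 groups taken from the genotype and condition in the labels. The authors converted base calls with bcl2fastq, used STAR for alignment to mm10 and featureCounts for the counts of each gene, and normalised with edgeR's TMM method. The deposited signal values are CPM scaled by TMM factors. Tool versions, annotation, strand setting and the low-count filter are not given in the sources used here. The labels give a TruSeq kit and homogenised joints, and the paper a stranded kit and digested cells.

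From the deposited values, the worth of 1 read was found per library, and 100% of values were whole multiples of it (tolerance 0.01). The floor of 3 reads covers counting error only. The 95% intervals are for mean log2 differences and come from the limma fit, which takes in the spread between mice. Fcgr1 was listed with 1 duplicate of identical values and was counted once. Genes reaching 1 CPM in 4 or more libraries were tested with limma 3.58.1 (R 4.3.3, trended empirical Bayes) on log2(CPM + 1), all groups in one fit. Injury calls used a Benjamini-Hochberg adjusted p under 0.05. Genotype and interaction calls used the criterion of the study, an unadjusted p under 0.05 with a log2 fold change over 0.32 in size. Single values were compared by exact two-sided permutation (70 assignments, smallest p 0.0286). The fit was tested on simulated data. Nothing states that the mice of a group came from separate cages or batches. The p-values judge differences between groups against the spread between these mice only.

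Named genes were the 28 members, and per other pathway list up to 3 genes of largest change past the threshold in either genotype. The members and all lists were chosen with earlier results of these data known. Levels per kb used exon lengths, and shared 75-base windows were counted, from the GENCODE annotation of GRCm38. Alternatives were other pseudocounts, filters, scalings, sample sets, a variance model without trend, a replicate block, each library left out, and edgeR 4.0.16, voom and DESeq2 1.42.0 on the recovered reads.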

Additional observations from a re-analysis of the deposited data

Results flagged for a closer look

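In 5 of 112 sets of 4 mice, a single mouse stood apart from the other 3 by Dixon's test at the 95% limit, where chance alone gives about 5.6. The gap to the nearest mouse, as a share of the range, was 0.889 for Hk2 in the fourth WT D7 mouse (304 CPM, the others 199.7 to 211 CPM), 0.839 for Pfkp in the second WT D0 mouse (103 CPM, the others 141 to 148 CPM) and 0.834 for Aldoa in the third WT D0 mouse (697 CPM, the others 524 to 553 CPM). The third Trem2-/- D7 mouse stood apart for both Aldoc (0.940, at 5.04 CPM against 2.00 to 2.18 CPM) and Tpi1 (0.866, at 237 CPM against 197 to 202 CPM).

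By the criterion of the study on the unadjusted interaction test, 3 of the 28 genes were called, where 7.79% of all genes tested were called. The log2 difference, Trem2-/- minus WT, was −1.003 for Hk3, −0.88 for Pfkfb4 and 0.40 for Pdk1. None passed adjustment over all genes.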

How the results depend on the processing

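Of 31 member results called, 21 kept their call under all 13 alternative settings that applied and with each of 16 libraries left out, and 0 reversed. Of 109 results not called, 17 passed under at least 1 of these. With only the compared groups in the fit, the WT injury count was 6 rather than 11. The genotype count at D7 was 1 rather than 2 with a pseudocount of 5, with quantile normalization, with median-of-ratios rescaling and with a fold change over 1.5. Leaving out single libraries gave 7 to 13 genes for injury in WT, 14 to 17 for injury in Trem2-/-, 0 to 3 for genotype at D7, 0 to 2 for genotype at D0 and 1 to 5 for the interaction. The shares of all genes tested that passed in these fits are not given beside these counts. A mean of at least 5 CPM removed Aldoc and Ankrd37 from the test. No interaction was computed with only the compared groups, since it needs all 4.

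Replicate numbers do not pair the mice in the labels, and same-numbered mice of different groups deviated together by correlations of −0.51 to 0.41 over 24 pairs, with 7 of 24 correlating best with their own number. With the replicate block, injury calls were 10 in WT, where Egln1 was lost, and 15 in Trem2-/-, and the genotype and interaction counts were 2 at D7, 0 at D0 and 3. Depth did not limit most genes, but Aldoc was low at D0, at 0.538 to 1.31 CPM in WT and 0 to 1.21 CPM in Trem2-/-. Over all libraries, 3 reads correspond to 0.101 to 0.250 CPM.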
